A study of Homo sapiens with 17 samples.

Results

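Plasmid transfections of NKYS cells came in 2 numbered sets, and these were set against each other, gene by gene. NKYS is an established human lymphoma line of NK/T-cell origin, cultured here in medium with recombinant interleukin-2 (IL-2). Of the 17 arrays of the study, 8 entered the comparison, 4 of each set. Set 1 held 1 array each of cells electroporated with the vector control, EZH2 Y244D, EZH2 Y244A and EZH2 WT plasmids, and set 2 held 1 array under each of the same 4 titles. EZH2 is the histone H3 lysine methyltransferase of Polycomb repressive complex 2, and the plasmids named Y244D and Y244A carry aspartate and alanine in place of one of its tyrosines. A set was read from the number in the title, except that the array titled EZH2 WT carries no number and was placed in set 2 by its transfection field, Mt2. The titles and transfection fields of the set 2 arrays with an EZH2 plasmid name different constructs, so that arrays are called here by their titles. All cells carried the endogenous EZH2 gene. The sources used here give neither the plasmid promoter, nor the time after transfection, nor what the set numbers stand for (a day, a culture or an array run). Set and any such batch therefore cannot be told apart. Because each set held the same 4 titles, the plasmid types were balanced across sets when read by title.

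In these cells IL-2 acts through a receptor whose common gamma chain binds the kinase JAK3. JAK3 activates STAT5, which induces feedback inhibitors such as CISH and SOCS1, and in lymphocytes represses the gene of the transcriptional repressor BCL6. The same receptor feeds the ERK and PI3K pathways. Sterol regulatory element-binding proteins, encoded by SREBF1 and SREBF2, drive the genes of cholesterol and fatty acid synthesis when cell sterols are low. H/ACA small nucleolar RNAs guide the conversion of uridine to pseudouridine in ribosomal RNA.

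Signal was deposited as linear fluorescence intensity and was compared after log2, set 1 minus set 2, so that a positive difference is higher in set 1. Values of single arrays are intensities, listed in the order vector, Y244D, Y244A and WT. A gene was called when limma's adjusted p was under 0.05. Of 14410 genes tested, 5851 (40.6%) were called. Of these, 2439 genes (16.9% of those tested) were higher in set 1 and 3412 genes (23.7%) were lower. Few differences were large, with 21 genes at least 2-fold higher and 270 at least 2-fold lower. All 4 arrays of set 1 lay above all 4 of set 2 for 2147 genes (14.9%), and below them for 2343 genes (16.3%). After quantile normalization, which gives every array the same distribution, 2193 genes (15.2%) were higher and 2625 (18.2%) were lower. With each array centred on its median, 24.5% of calls were higher, against 41.7% as deposited.

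The distribution of signal moved with the set. The interquartile range of log2 signal was 1.79, 1.85, 2.03 and 1.96 on the arrays of set 1, against 2.18, 2.14, 1.99 and 2.14 in set 2. The sets averaged 1.91 ± 0.11 and 2.11 ± 0.09 (SD, n = 4 each; exact permutation test over 70 splits, two-sided p = 0.0571, where the smallest p it allows is 0.0286). The Y244A arrays broke the order, with the highest value of set 1 and the lowest of set 2. The first principal component held 79.1% of the variance and correlated with the interquartile range at r = -0.991 over the 8 arrays, as a description. Its part in the counts was tested only through a fit with the interquartile range as a covariate. That fit called 795 genes higher and 790 lower of 14410 tested, the background for the counts with this covariate below. With that covariate 21 genes described here lost their call (adjusted p between 0.0535 and 0.767), namely SQLE, DHCR7, IDI1, SCD, ELOVL1, THRSP, JAK1, OSM, TGFB1, CDKN1C, CDKN2B, KLRC1, CD226, TOX, CENPF, SLC7A11, BBC3, BOK, MCL1, FAM27B and LOC441081. In all, 941 genes, 205 higher and 736 lower, were called with the same sign as deposited, after quantile normalization, with that covariate and on 5 arrays. These 5 were set 1 Y244A and WT and set 2 vector, Y244D and WT, the arrays of widest range in each set. The set 2 Y244A array, nearer to set 1 in range, was left out, so that range still differed between sets in that fit. The count of calls fell to 3064 without the set 1 Y244D array, 2650 without the set 2 vector array, 2764 without the set 2 Y244D array and 2732 without the set 2 WT array. Without any 1 of those 4 arrays, or of the set 1 vector array, genes called higher fell to between 675 and 1336, and without the set 2 Y244A array they numbered 3687.

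**Figure D1:**
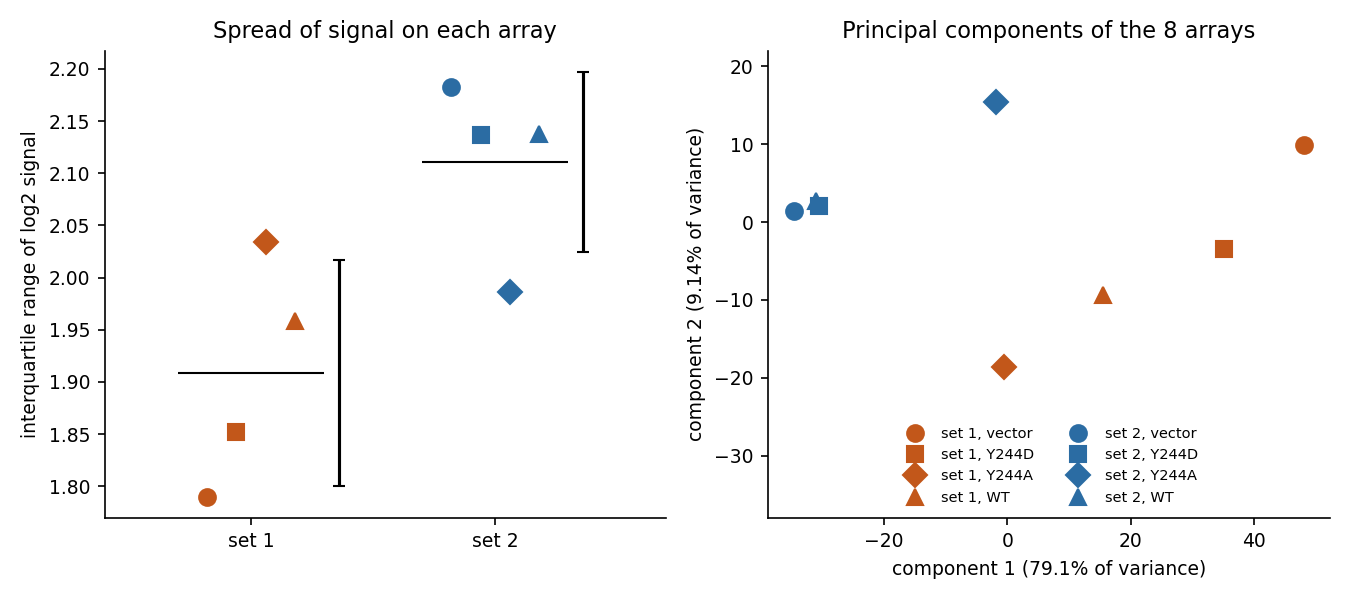
The left panel gives the interquartile range of log2 signal of each array of set 1 and set 2, with the mean (line) and SD (bar, n = 4), and the right panel gives the first 2 principal components of the 8 arrays over 14410 genes. The Y244A arrays lie between the other arrays of both sets in range and on component 1, which holds 79.1% of the variance.

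The EZH2 gene itself did not separate the sets. Its signal was 259, 2221, 853 and 1020 in set 1, against 349.5, 802, 1177 and 881 in set 2. On every EZH2 plasmid array it exceeded the vector array of its set, and the highest value was that of set 1 Y244D. The difference between sets was 0.20 (SE 0.55, adjusted p = 0.766), with overlapping groups. JAK3 signal was 206, 204, 284 and 247 in set 1, against 262, 258, 216 and 259 in set 2, and these overlapped too, with a difference of -0.09 (SE 0.13, adjusted p = 0.54). The sign of the EZH2 difference turned without the set 1 Y244D array (-0.27), and that of JAK3 turned after quantile normalization (0.16). Markers of natural killer (NK) cells ranged widely in signal, with PRF1 (perforin) at 1641 to 2397 in set 1, against 2012 to 2225 in set 2. NKG7 read 433 to 655 in set 1, against 552 to 751 in set 2, and NCR1 170 to 233, against 173 to 185. NCAM1 (79.4 to 104.9 in set 1, against 65.25 to 84.3 in set 2) and KLRD1 (62.9 to 106, against 89.2 to 121) were nearer the median signal of the arrays, 64.5 to 73.0. CD3D, CD3E and MS4A1, which mark T and B cells, read 30.6 to 41.9 in set 1, against 29.9 to 39.0 in set 2, near the lower quartile of all probe sets on these arrays, 33.7 to 38.6.

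BCL6 was the protein-coding gene with the largest fall in set 1. Its product is a transcriptional repressor of lymphocyte differentiation. Its signal was 110.1, 154, 171 and 145 in set 1, against 709, 692, 575 and 692 in set 2. Every set 1 array lay more than 3-fold below every set 2 array, and the difference was -2.21 (SE 0.14, adjusted p = 1.82e-05), 4.64-fold lower. ARRDC3, an alpha-arrestin that promotes the uptake and degradation of membrane proteins, had 270.2, 258, 518 and 332 in set 1, against 961, 989, 795 and 870.5 in set 2. The groups did not overlap although the set 1 Y244A array stood highest in its set, and ARRDC3 fell by 1.44 on the log2 scale in set 1 (SE 0.19, adjusted p = 0.000638). Both genes kept their direction and their call under all 19 alternatives. Both belong to the genes linked to FOXO factors and quiescence, but the list did not move one way. Of its 19 tested members, 6 were higher (31.6%) and 4 were lower (21.1%), where 16.9% and 23.7% of all genes were. BTG1, an antiproliferative cofactor, was higher in set 1, with 866, 912, 948 and 1089, against 565, 554, 543 and 559.5 in set 2 (difference 0.78, SE 0.10, adjusted p = 0.000442). CITED2, a cofactor of CBP and p300, was higher as well by 0.69 (SE 0.12, adjusted p = 0.0026). These 4 genes thus separated all arrays of the sets while moving in opposite directions.

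**Figure D2:**
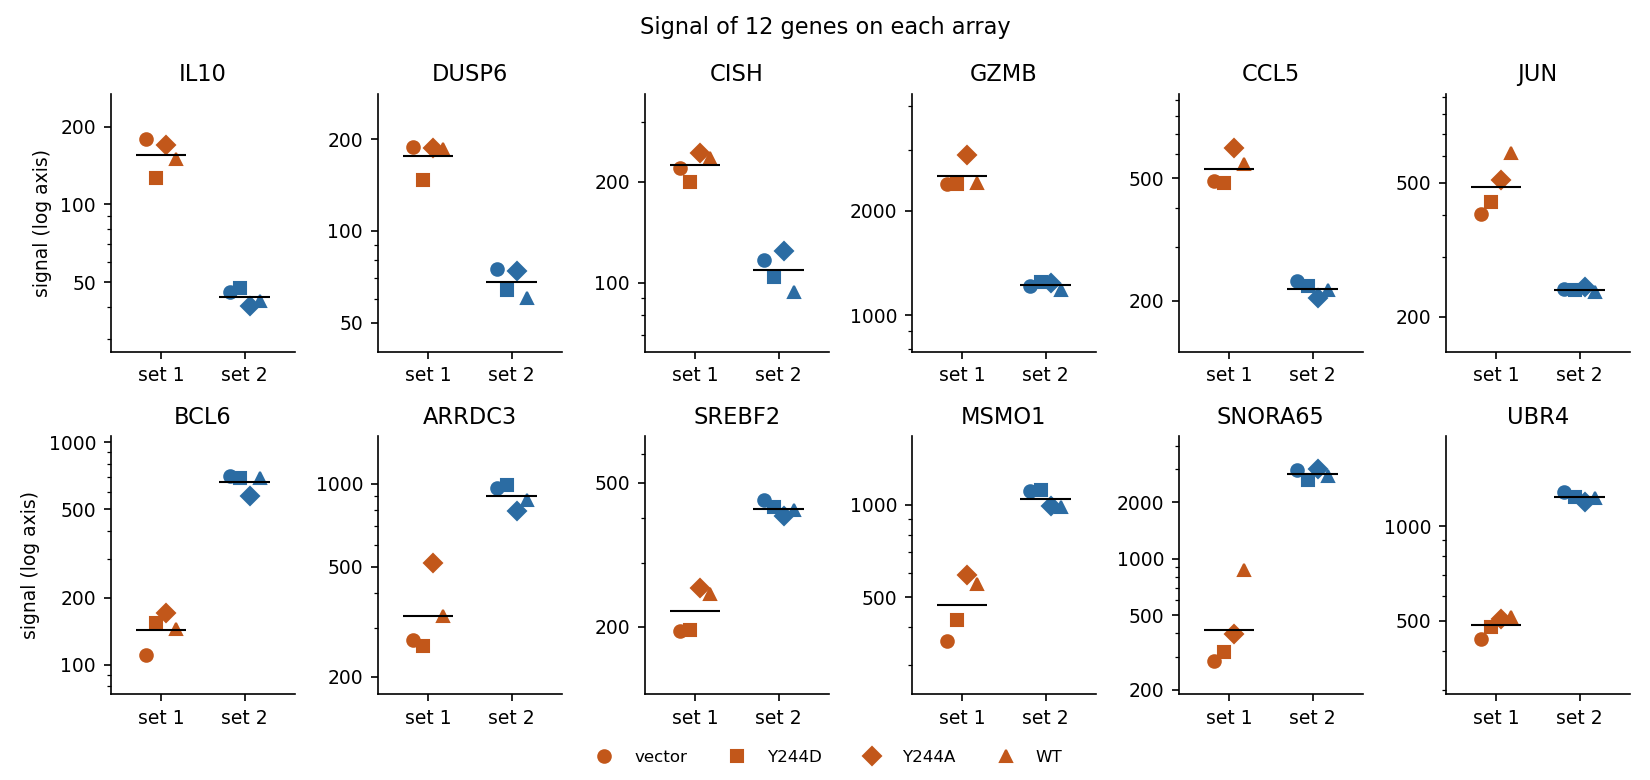
Signal of 12 genes on each of the 4 arrays of set 1 (left) and set 2 (right), on a log axis. Horizontal lines are geometric means over 4 arrays, and marker shapes give the plasmid title. In all 12 panels the sets are separate, with IL10, DUSP6, CISH, GZMB, CCL5 and JUN above in set 1 and the other 6 genes below.

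Most genes listed for the IL-2 and STAT5 response were higher in set 1. Of 23 tested members of that list, 15 were higher (65.2%, against 16.9% of all genes), 0 were lower and 8 were not called. The median difference over the 23 was 0.45, against 0.02 over all genes tested, and 4 of the members not called had a difference below 0. After quantile normalization 17 were higher and 0 lower, and with the interquartile range as a covariate 14 were higher and 0 lower. Taken by same-titled arrays, the list's median was 0.47 between the vector arrays, 0.33 between Y244D arrays, 0.52 between Y244A arrays and 0.38 between WT arrays. This list was chosen with results on these arrays known, and its count is a description.

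CISH, the cytokine-inducible inhibitor that STAT5 switches on, had 219, 199.7, 243.7 and 235 in set 1, against 117, 104, 124 and 93.7 in set 2. No array overlapped, and the difference was 1.03 (SE 0.11, adjusted p = 0.000231), 2.05-fold higher. The 250 bases before the annotated start of CISH are shown because they hold the palindrome TTCNNNGAA, to which STAT5 can bind, 4 times (in capitals; it reads the same on both strands). They lie on the minus strand at chr3:50611775-50612024 of GRCh38.p14 and were taken from RefSeq.
CISH promoter: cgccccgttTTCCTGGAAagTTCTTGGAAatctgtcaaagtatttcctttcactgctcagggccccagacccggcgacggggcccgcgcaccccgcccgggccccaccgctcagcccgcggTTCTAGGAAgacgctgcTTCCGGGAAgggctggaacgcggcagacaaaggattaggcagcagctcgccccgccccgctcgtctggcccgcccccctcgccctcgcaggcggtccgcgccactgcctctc
That motif occurs in 3 of 16 promoters matched for the list (18.8%), those of CISH, TNFRSF9 and LTA, and in 6.78% of 27305 promoters of the same length. TNFRSF9 and LTA were not called (adjusted p = 0.115 and 0.146), and a match describes letters and not binding.

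DUSP6, a phosphatase that switches off ERK, had the largest difference of this list. It had 188, 147, 187 and 186 in set 1, against 74.9, 63.8, 74.0 and 60.3 in set 2 (difference 1.38, SE 0.12, adjusted p = 8.59e-05). The set 1 Y244D array was the lowest of its set, and yet it was above every array of set 2. GZMB, the granule protease granzyme B, had 2382, 2391, 2903 and 2413 in set 1, against 1216, 1248, 1237 and 1180 in set 2 and rose by 1.04 (SE 0.10, adjusted p = 0.000109). SOCS1, another inhibitor of JAK kinases, ranged from 215 to 278 in set 1, against 148 to 175 in set 2 (difference 0.66, SE 0.11, adjusted p = 0.0019). Further members, named after their values were seen, were higher to a smaller degree. IL2RA, the alpha chain of the IL-2 receptor, ranged from 1231 to 1808 in set 1, against 886 to 1062 in set 2 (difference 0.62, SE 0.12, adjusted p = 0.0049). The differences of PIM1, a kinase induced by STAT5, and of CCND2, cyclin D2, were 0.51 (SE 0.11, adjusted p = 0.00655) and 0.45 (SE 0.10, adjusted p = 0.00667). MYC rose by 0.57 (SE 0.10, adjusted p = 0.00312), with 375 to 461 in set 1, against 254 to 307 in set 2. Of 11 JAK and STAT genes 0 were higher and 3 were lower (27.3%, near the 23.7% of all genes) as deposited, and with the interquartile range as a covariate 2 were higher and 0 lower. JAK1 was lower by 0.69 on the log2 scale in set 1 (307 to 425 in set 1, against 489 to 613 in set 2; adjusted p = 0.00286), and that list's median turned positive after quantile normalization (0.06).

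Secreted proteins were among the largest rises. IL10, the anti-inflammatory cytokine interleukin-10, had 179, 127, 170.3 and 149.9 in set 1, against 45.7, 47.5, 40.4 and 42.3 in set 2. Set 2 values were little above the lower quartile of all probe sets, and the difference was 1.82 (SE 0.12, adjusted p = 2.69e-05), 3.54-fold higher. CCL5, a chemokine that draws T and NK cells, had 489.7, 484, 631 and 558 in set 1, against 232, 223, 205 and 217 in set 2 and rose by 1.30 (SE 0.11, adjusted p = 6.93e-05). PPBP, the precursor of the chemokine CXCL7, ranged from 431 to 566 in set 1, against 161 to 212 in set 2 (difference 1.33, SE 0.12, adjusted p = 9.91e-05). CCR7, a receptor for homing to lymph nodes, ranged from 1770 to 2104 in set 1, against 716 to 825 in set 2 (difference 1.24, SE 0.10, adjusted p = 5.50e-05). In all, 7 of 15 tested cytokines and chemokines were higher (46.7%, against 16.9% of all genes) and 1, TGFB1 (named after its value was seen), was lower. The list's median was 0.31, and it stood at 0.20 after quantile normalization. With the interquartile range as a covariate 2 were higher, 0 were lower and the median was 0.07. The TGFB1 call ended after quantile normalization (adjusted p = 0.377) and in 5 of the 8 fits without 1 array. OSM, a cytokine induced by STAT5, was 1 of the 7 (difference 0.61, SE 0.13, adjusted p = 0.00653). COL6A5, a collagen VI chain, rose by 1.16, PIK3R6, a regulator of PI3K gamma, by 1.05 and the transcription factor gene BHLHE40 by 1.08, and none of these overlapped between sets.

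Immediate early genes respond to signalling within minutes. They were higher in 9 of 18 cases (50%, against 16.9% of all genes) and lower in 0, with a median of 0.31. With the interquartile range as a covariate 5 were higher and 0 lower, with a median of 0.17. Subunits of the AP-1 factor led them. FOSB had 315, 260.4, 221 and 320.1 in set 1, against 131, 119.6, 152 and 128 in set 2 (difference 1.06, SE 0.13, adjusted p = 0.000477). JUN had 405, 439, 512 and 615 in set 1, against 241, 240.0, 245 and 236 in set 2 (difference 1.02, SE 0.13, adjusted p = 0.000449), with the set 1 WT array highest. FOS rose by 0.98 (SE 0.15, adjusted p = 0.00144) and IER2 by 0.65 (SE 0.13, adjusted p = 0.00475). Of 11 tested genes of ERK feedback, 5 were higher (45.5%, against 16.9% of all genes) and 0 lower. Of these 5, DUSP4, DUSP5 and DUSP6 also stand in the IL-2 list. DUSP5, a nuclear phosphatase of ERK, ranged from 184 to 239 in set 1, against 139.9 to 153 in set 2 (difference 0.51, SE 0.10, adjusted p = 0.00489). NF-kB targets gave 4 higher (30.8%) and 1 lower (7.69%) of 13, where 16.9% and 23.7% of all genes were. NFKBIZ, an inducible nuclear member of the inhibitor of NF-kB family, had 201, 194, 273 and 233 in set 1, against 93.9, 92.7, 91.8 and 98.5 in set 2 (difference 1.24, SE 0.12, adjusted p = 0.000113). TNFAIP3, a feedback inhibitor, rose by 0.48 (SE 0.10, adjusted p = 0.00502). REL, an NF-kB subunit, was the member that fell, by 0.69 on the log2 scale (104 to 123 in set 1, against 180.3 to 193 in set 2; adjusted p = 0.000631).

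**Figure D3:**
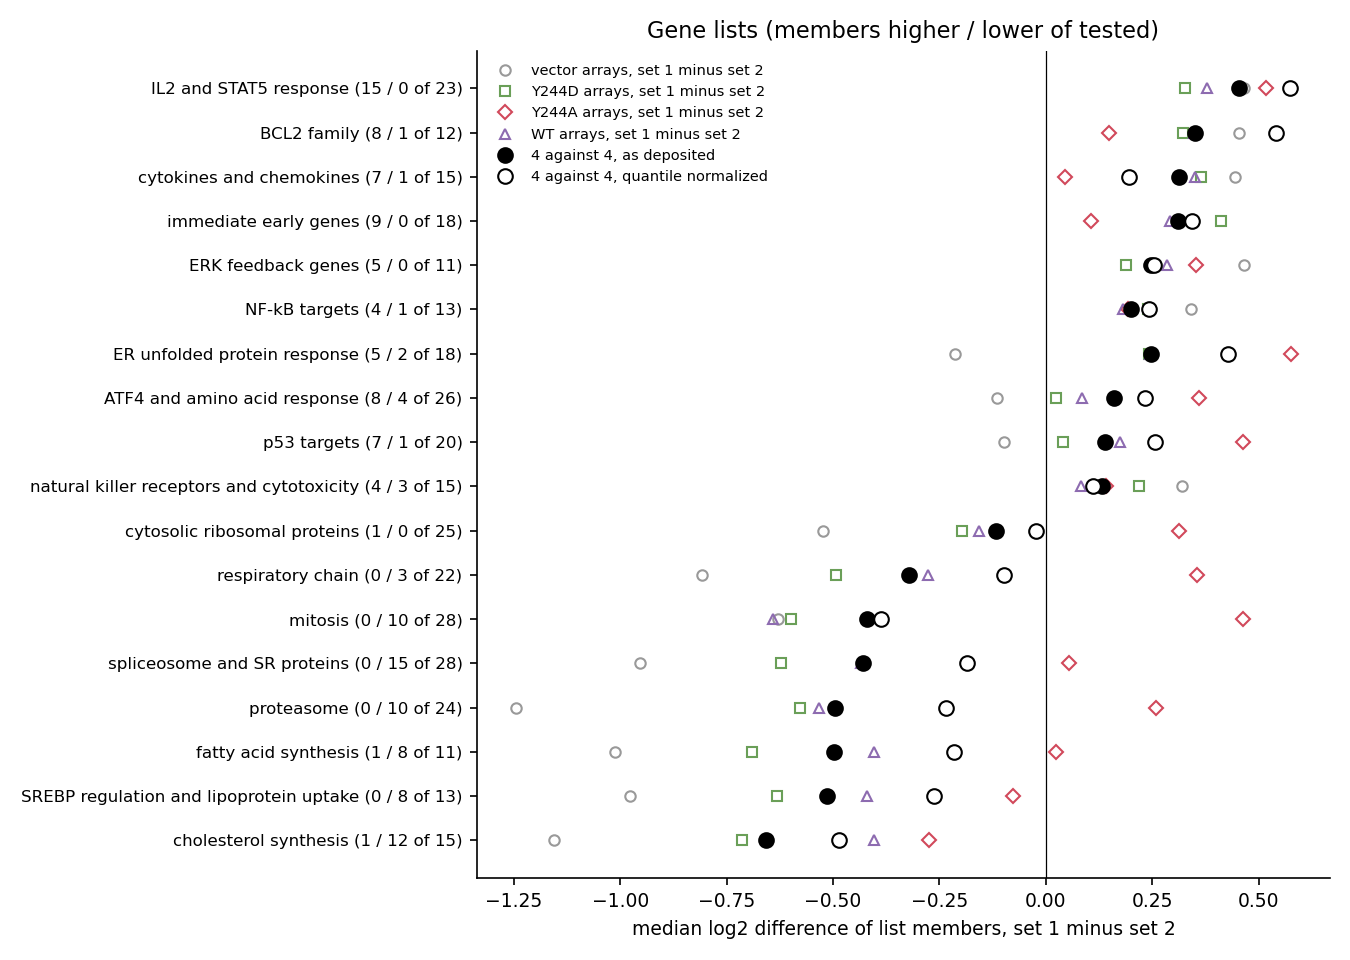
Median log2 difference, set 1 minus set 2, of 18 gene lists, with the members called higher and lower of those tested in brackets. Filled and open black circles are the comparison of 4 against 4 arrays as deposited and after quantile normalization, and coloured open symbols are differences between same-titled arrays. The IL-2 and STAT5 list lies above 0 and cholesterol synthesis below 0 in every comparison shown, while the Y244A arrays give medians above 0 for mitosis (0.46) and the proteasome (0.26).

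Most genes of lipid synthesis were lower in set 1 as deposited. Of 15 tested enzymes of cholesterol synthesis, 12 were lower (80.0%, against 23.7% of all genes) and 1 was higher, with a median of -0.66 as deposited and -0.49 after quantile normalization, where 9 were lower and 3 higher. MSMO1, sterol methyl oxidase, had 361, 421, 591 and 551 in set 1, against 1112, 1116, 995 and 983 in set 2. The groups were separate and the difference was -1.15 (SE 0.15, adjusted p = 0.00057), 2.23-fold lower. ACAT2, which makes the first precursor acetoacetyl-CoA, had 72.7, 95.6, 131 and 113 in set 1, against 251, 257, 193 and 238 in set 2 (difference -1.21, SE 0.17, adjusted p = 0.000843). HMGCS1 and IDI1, further along the mevalonate pathway, fell by 0.85 and 0.80 on the log2 scale in set 1 (adjusted p = 0.00117 and 0.00587). SQLE, squalene epoxidase, had 319.8, 379, 569.5 and 524 in set 1, against 714, 772, 688 and 694 in set 2. DHCR7, which makes cholesterol in the last step, had 186, 267, 337 and 310.2 in set 1, against 476, 496, 455 and 434 in set 2. Neither SQLE nor DHCR7 overlapped between sets, and within set 1 both were lowest on the vector array and highest on the Y244A array. SQLE differed by -0.72 (SE 0.17, adjusted p = 0.00911) and DHCR7 by -0.79 (SE 0.16, adjusted p = 0.00533). With the interquartile range as a covariate, the SQLE difference was -0.24 (adjusted p = 0.351) and that of DHCR7 -0.37 (adjusted p = 0.167), and 3 enzymes were called lower and 2 higher. PMVK, phosphomevalonate kinase, was the enzyme called higher (0.27, SE 0.10, adjusted p = 0.0463), a call that ended in 7 of the 8 fits without 1 array. TM7SF2 (0.05) and MVD (0.08) were not called. These last 3 were named after their values were seen.

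The regulators and the fatty acid branch also held more lower than higher calls. Of 13 tested genes of SREBP regulation and lipoprotein uptake, 8 were lower (61.5%, against 23.7% of all genes) and 0 higher as deposited. After quantile normalization 7 were lower, where 18.2% of all genes were. With the interquartile range as a covariate 3 were lower and the median was -0.06, against -0.51 as deposited. SREBF2, the gene of the sterol-sensing factor SREBP-2, had 195, 196, 256 and 246 in set 1, against 447, 427, 404 and 419 in set 2 (difference -0.94, SE 0.11, adjusted p = 0.000378). The 250 bases before its annotated start are shown because they hold the only match to TCACNCCAC, the core of a sterol regulatory element, among the promoters of these lists. They lie on the plus strand at chr22:41832855-41833104 of GRCh38.p14, from RefSeq, with the match in capitals.
SREBF2 promoter: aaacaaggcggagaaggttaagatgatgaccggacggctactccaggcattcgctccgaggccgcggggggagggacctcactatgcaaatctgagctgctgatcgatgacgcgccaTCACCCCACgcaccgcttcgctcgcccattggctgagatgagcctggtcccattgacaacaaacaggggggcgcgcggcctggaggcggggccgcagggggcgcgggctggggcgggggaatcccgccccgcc
The motif, searched on both strands, was in 1 of 12 promoters of this list, in 0 of 13 and 0 of 10 promoters of the cholesterol and fatty acid lists, and in 0.875% of all 27305. ABCA1, which exports cholesterol and is induced by sterols, was lower as well, with 195, 191, 257 and 265 in set 1, against 509, 517, 497 and 488 in set 2 (difference -1.16, SE 0.12, adjusted p = 0.000201). NPC1, the lysosomal cholesterol transporter, fell by 0.93 on the log2 scale (SE 0.16, adjusted p = 0.002). Of 11 tested genes of fatty acid synthesis, 8 were lower (72.7%, against 23.7% of all genes) and 1, THRSP (named after its value was seen), was higher. That list had 5 lower and 0 higher after quantile normalization (median -0.21) and 2 lower and 0 higher with the covariate (median -0.06), against a median of -0.50 as deposited. The THRSP call also ended in 5 of the 8 fits without 1 array. FASN, fatty acid synthase, ranged from 179.9 to 221 in set 1, against 373 to 431 in set 2 (difference -0.98, SE 0.10, adjusted p = 0.000179). SCD, the desaturase of stearoyl-CoA, ranged from 279 to 534 in set 1, against 696 to 878 in set 2 (difference -1.02, SE 0.18, adjusted p = 0.0027). ACACA, which makes malonyl-CoA, differed by -0.89 (SE 0.12, adjusted p = 0.000624) and the elongase gene ELOVL1 by -0.83 (SE 0.17, adjusted p = 0.00471). Between the Y244A arrays the medians were -0.27 for cholesterol synthesis, -0.08 for SREBP regulation and 0.02 for fatty acid synthesis, against -1.16, -0.98 and -1.01 between the vector arrays. The interquartile range differed in opposite directions in these 2 pairs of arrays. With it as a covariate the medians over all 8 arrays were -0.29 for cholesterol synthesis and -0.06 for both other lists.

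Small nuclear and nucleolar RNAs held 13 of the 15 largest falls, beside BCL6 and TTC14. RNU5D-1, a variant of the U5 spliceosomal RNA, had 61.8, 81.9, 119.7 and 268 in set 1, against 1885, 2215, 2140 and 2256 in set 2. Every set 1 value was below every set 2 value, and the difference was -4.23 (SE 0.35, adjusted p = 6.83e-05), 18.8-fold lower. SNORA65, an H/ACA guide RNA, had 284, 317, 398 and 867 in set 1, against 2992, 2630, 2999 and 2759 in set 2 (difference -2.76, SE 0.28, adjusted p = 0.000166). SCARNA4, a guide RNA of Cajal bodies, had 74.0, 55.0, 88.1 and 169 in set 1, against 490.3, 515, 716 and 519 in set 2 (difference -2.65, SE 0.28, adjusted p = 0.000194). For all 13 RNAs the WT array was the highest of set 1, and no set 1 array reached the range of set 2. SNORA15 showed less spread, with 50.9, 41.5, 46.0 and 57.0 in set 1, against 172, 181, 191 and 187 in set 2 (difference -1.91, SE 0.11, adjusted p = 1.29e-05). SNORA41 and SNORA2B fell to 24.7 to 36.9 in set 1, against 77.5 to 114 in set 2, so that set 1 was near the lower end of signal on these arrays. The other 7 of the 13 differed by -2.32 (SNORA75), -2.25 (SNORA27), -1.89 (SNORA74A), -1.88 (SNORA14A), -1.83 (RNU5E-1), -1.78 (SNORA3B) and -1.75 (SNORA3A). RNU5D-1 and RNU5E-1, and SNORA3A and SNORA3B, are close copies whose probes may share signal.

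As deposited, these RNA families held more lower than higher calls, to different degrees. Of 54 tested H/ACA snoRNAs 26 were lower (48.1%) and 4 were higher, with a median of -0.49. Of 15 scaRNAs 9 were lower (60.0%) and 1 higher, and of 15 RNU genes 9 were lower (60.0%) and 1 higher. Of 69 C/D snoRNAs, which guide ribose methylation, 22 were lower (31.9%) and 7 higher (10.1%). Of all genes, 23.7% were lower and 16.9% higher. After quantile normalization 14 C/D snoRNAs were lower and 11 higher (median -0.07), where 18.2% and 15.2% of all genes were. In that scaling 4 scaRNAs were lower and 1 higher (median -0.12), and 6 RNU genes were lower and 1 higher (median -0.50). SNORA10 was among the higher H/ACA snoRNAs, with 2056, 1948, 2156 and 2709 in set 1, against 848, 969, 1358 and 1023 in set 2 (difference 1.09, SE 0.15, adjusted p = 0.000821). Of 65 microRNA genes 26 were higher (40.0%) and 2 lower, as deposited. With the interquartile range as a covariate 2 H/ACA snoRNAs were higher and 19 lower, and microRNA genes gave 5 higher and 3 lower. These families were grouped after their values were seen. Array probes read the labelled cDNA of total RNA, and whether the sets differed in how well short RNAs were kept was not tested. TTC14, a protein-coding gene, ranged from 76.3 to 108 in set 1, against 251 to 332 in set 2 (difference -1.75, SE 0.13, adjusted p = 4.41e-05).

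Calls of lower signal in set 1 were more frequent among long genes, and calls of higher signal among short genes, although most genes of both kinds did not pass in that direction. Genes were split by genomic span into 5 bins of equal size. In the shortest bin (up to 6.46 kb), 27.8% were higher and 6.35% lower, with a median difference of 0.21. In the longest bin (over 77.8 kb), 11.3% were higher and 40.9% lower, with a median of -0.23. Across 14400 genes the difference and the span had a Spearman rho of -0.331 as deposited and -0.356 after quantile normalization, as a description over genes that share the same arrays. Mean signal also followed the difference as deposited (Pearson r = -0.408) and did so less after quantile normalization (r = -0.0924). Very long genes, named after their values were seen, had narrow groups. UBR4, a giant ubiquitin ligase gene spanning 135757 bases, had 437, 478, 507 and 515 in set 1, against 1285, 1234, 1191 and 1227 in set 2 (difference -1.35, SE 0.09, adjusted p = 2.69e-05). KMT2C, a histone H3 lysine 4 methyltransferase gene of 301079 bases, had 281, 278, 355 and 342 in set 1, against 876, 859.7, 749 and 844 in set 2 (difference -1.41, SE 0.11, adjusted p = 5.50e-05). HERC1, HECTD4 and the dynein heavy chain gene DYNC1H1 fell by 1.42, 1.42 and 1.17 on the log2 scale. All 5 kept their call under all 19 alternatives. The sources used here do not state RNA integrity, and its part in this pattern was not tested.

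**Figure D4:**
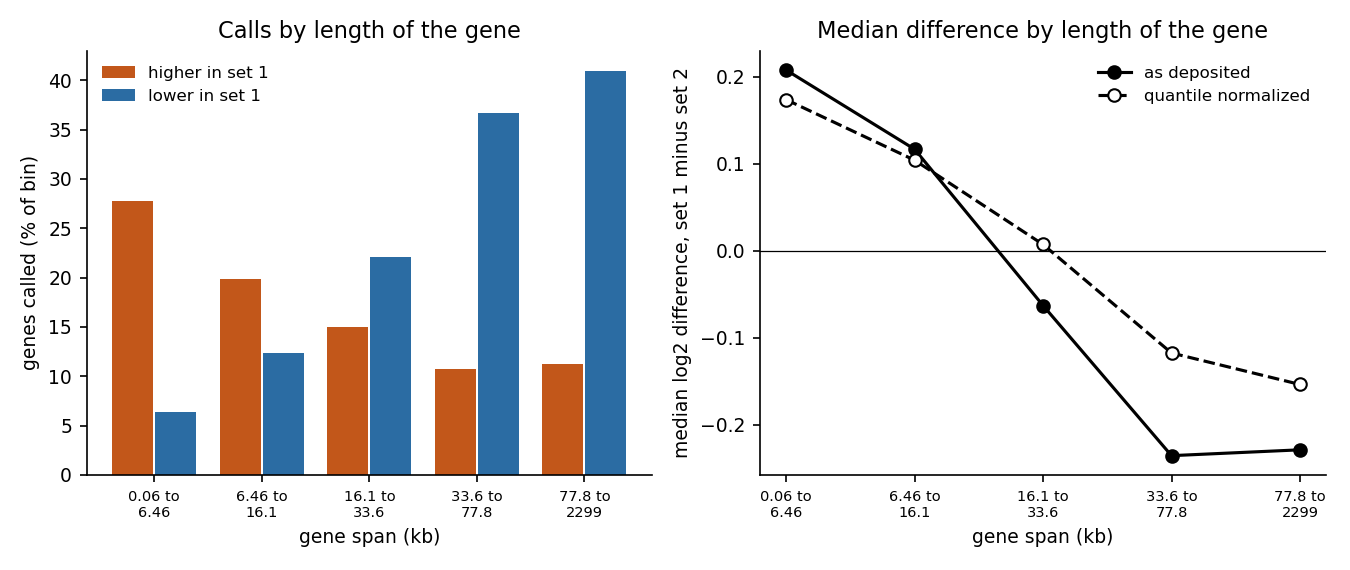
Genes in 5 bins of genomic span, shortest at the left: the left panel gives the share called higher or lower in set 1, and the right panel the median log2 difference, set 1 minus set 2, as deposited and after quantile normalization. Calls of higher signal drop to 11.3% in the longest bin, where 40.9% are lower, and the trend is present in both scalings.

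Survival genes and stress genes moved in both directions. Of 12 tested members of the BCL2 family 8 were higher (66.7%, against 16.9% of all genes) and 1 lower as deposited, and 3 were higher and 0 lower with the interquartile range as a covariate, where the median was 0.17, against 0.35. BCL2 had 162, 119, 164 and 137 in set 1, against 100.6, 90.2, 102 and 111 in set 2 (difference 0.52, SE 0.12, adjusted p = 0.00972). The death-promoting BBC3 and BOK were higher by 0.52 (SE 0.10, adjusted p = 0.00502) and 0.57 (SE 0.12, adjusted p = 0.00546). MCL1, a short-lived survival protein, was the member that fell, with 721, 768, 970.4 and 798 in set 1, against 1293, 1319, 1074 and 1269 in set 2 (difference -0.61, SE 0.12, adjusted p = 0.00377). ATF4, the transcription factor of the amino acid and stress response, had 833, 886, 834 and 1127 in set 1, against 550.3, 511, 535 and 464 in set 2 (difference 0.83, SE 0.12, adjusted p = 0.000883). Its list gave 8 higher (30.8%) and 4 lower of 26, and 10 and 0 with the covariate. CHAC1, an ATF4 target that degrades glutathione, rose by 0.68, whereas SLC7A11, the cystine transporter and also an ATF4 target, fell by 0.93 on the log2 scale (adjusted p = 0.0027). Genes of the unfolded protein response of the endoplasmic reticulum gave 5 higher and 2 lower of 18 as deposited. They gave 10 and 0 after quantile normalization, and 14 and 0 with the covariate. HYOU1 and MANF led them at 0.41 each (adjusted p = 0.0286 and 0.0307), and both calls ended in 5 of the 8 fits without 1 array. Their groups overlapped, because the set 1 vector array read 469 and 488 for these genes, against up to 479.9 and 503 in set 2. Targets of p53 gave 7 higher (35.0%) and 1 lower of 20 as deposited, and 12 and 0 with the covariate, with the kinase gene PLK3 first (difference 0.63, SE 0.10, adjusted p = 0.00187).

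Receptors and granule genes of NK cells were divided. Of 15 tested, 4 were higher (26.7%) and 3 lower (20.0%) as deposited, where 16.9% and 23.7% of all genes were. With the interquartile range as a covariate 2 were higher and 0 lower. Beside GZMB, the granzyme gene GZMM rose, with 158 to 196 in set 1, against 111 to 131 in set 2 (difference 0.54, SE 0.10, adjusted p = 0.00374). KLRC1, the inhibitory receptor NKG2A, was lower, with 57.4, 54.2, 88.6 and 67.7 in set 1, against 137, 128, 92.0 and 116 in set 2 (difference -0.83, SE 0.17, adjusted p = 0.00494). CD226, an activating receptor, differed by -0.73 (SE 0.18, adjusted p = 0.012), and its Y244A arrays overlapped, with 347 in set 1 and 314 in set 2. TOX, a factor of NK and T cell development, fell by 0.71 on the log2 scale (adjusted p = 0.00431). Markers of other cells ranged widely in signal. LYZ, at 27.5 to 30.8 in set 1, against 24.98 to 28.1 in set 2, and EPCAM, at 31.9 to 37.6 in set 1, against 29.4 to 31.9 in set 2, were near or below the lower quartile. CD79A (62.9 to 75.2 in set 1, against 54.3 to 65.0 in set 2), CD14 (71.8 to 86.5, against 52.6 to 73.2), CSF1R (98.2 to 124, against 127 to 145), COL1A1 (109 to 159, against 101.2 to 126) and COL1A2 (85.4 to 123, against 74.8 to 91.0) were above it in both sets. The keratin genes KRT8 and KRT18 read 85.9 to 126 and 200.1 to 430 in set 1, against 60.5 to 86.5 and 182 to 295 in set 2. Of all genes, 16.9% were higher and 23.7% lower as deposited. Of 7 B cell markers tested 0 were called, and of 6 T cell receptor markers 2 were higher (33.3%) and 1 lower (16.7%). Of 5 monocyte markers 3 were higher (60.0%) and 1 lower (20.0%), and of 9 epithelial and fibroblast markers 1 was higher (11.1%). Signal was also summed over all measured markers of each list, including those under the signal filter that were not tested. The 11 measured monocyte markers summed to 657 to 704 in set 1, against 570 to 645 in set 2. The 9 measured B cell markers summed to 624 to 698 in set 1, against 579 to 608 in set 2. The 12 measured epithelial and fibroblast markers summed to 3988 to 4590 in set 1, against 3457 to 3603 in set 2. For the 10 measured T cell receptor markers the sums were 743 to 898 in set 1, against 766 to 819 in set 2. The sums thus overlapped for the T cell receptor markers alone among these 4 lists. Over the tested markers, the medians with the interquartile range as a covariate were 0.05 for the B cell and 0.01 for the T cell receptor markers. They were 0.10 for the monocyte and -0.04 for the epithelial and fibroblast markers. As deposited the medians were 0.20, 0.26, 0.43 and 0.31, in the same order. The part of these 4 lists in the other results was not tested. In bulk RNA, fewer cells of a type and less RNA per cell cannot be told apart.

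Genes reported elsewhere as silenced by Polycomb repressive complex 2 gave 5 higher and 0 lower of 10, as deposited, where 16.9% of all genes were higher, and 3 higher and 0 lower with the interquartile range as a covariate. CDKN1C and CDKN2B, cell cycle inhibitors, and PRDM1, the repressor BLIMP-1, rose by 0.40, 0.41 and 0.40 (adjusted p = 0.0161, 0.0137 and 0.019). All 3 calls ended without the set 2 vector array and, in another fit, without the set 2 WT array. Of 12 subunits of the complex, 7 were lower and 1 higher, with a median of -0.42, which was -0.007 with the interquartile range as a covariate. Lists of growth machinery differed among themselves. Of 24 proteasome genes 10 were lower (41.7%) and 0 higher, of 28 splicing genes 15 were lower (53.6%) and 0 higher, and of 28 mitosis genes 10 were lower (35.7%) and 0 higher as deposited, against 23.7% of all genes lower. Ribosome biogenesis (36.8%) and mitochondrial ribosomal proteins (34.8%) also had a larger share of lower genes than that, with 0 higher in both. DNA replication (17.9%), the respiratory chain (13.6%) and nucleotide synthesis (22.7%) did not, although 21 of 22 respiratory chain genes had a difference below 0 (median -0.32). PSMB7, a catalytic subunit of the proteasome, ranged from 254 to 511 in set 1, against 607 to 851 in set 2 (difference -1.09, SE 0.19, adjusted p = 0.00252). LUC7L3, a splicing factor gene, ranged from 120.2 to 228 in set 1, against 300.5 to 443 in set 2 (difference -1.21, SE 0.19, adjusted p = 0.0014), and CENPF, a kinetochore gene, from 90.2 to 128 in set 1, against 140.3 to 210.5 in set 2 (difference -0.79, SE 0.15, adjusted p = 0.00377). Between the Y244A arrays the proteasome, splicing and mitosis medians were 0.26, 0.06 and 0.46, opposite in sign to the other 3 pairs. With the interquartile range as a covariate the proteasome and mitosis medians were 0.13 and 0.15, with 1 and 0 genes lower and 1 and 4 higher. In that fit 3 splicing genes were lower and 2 higher, 1 ribosome biogenesis gene was lower and 4 higher, and 1 mitochondrial ribosomal protein gene was lower and 0 higher. Cytosolic ribosomal proteins gave 1 higher and 0 lower of 25 as deposited, although 22 had a difference below 0 (median -0.12).

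Some of the highest rises came from multicopy sequences on the arrays of narrowest range. DNM1P46, a dynamin pseudogene, had 2752, 2216, 1119 and 1119 in set 1, against 377, 424, 715 and 439 in set 2 (difference 1.81, SE 0.30, adjusted p = 0.00187). FAM27B, LOC441081 and the read-through locus SEPT5-GP1BB showed the same order, with the vector array highest in set 1 and Y244A highest in set 2, at differences of 1.15, 1.06 and 1.12. With the interquartile range as a covariate these 3 differences were 0.33, 0.10 and 0.44, and of them only that of SEPT5-GP1BB was called (adjusted p = 0.0255). DNM1P46 stayed called in that fit, with a difference of 0.71 (adjusted p = 0.00536). Probes for DNM1P46, FAM27B and LOC441081 may read near-identical copies, so that these loci are uncertain.

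The set difference was compared between the vector arrays (1 per set) and the EZH2 plasmid arrays (3 per set). The interaction in limma called 0 genes (0%), as deposited and after quantile normalization, with 1766 genes at an unadjusted p under 0.05. A missed threshold does not show that vector and EZH2 plasmid cells differed alike between sets.

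Arrays outside the 2 sets gave values beside the set difference. The single array of EZH2 without its SET domain has no set number. It read 492 for BCL6, 50.4 for IL10, 61.1 for DUSP6, 162 for CCL5 and 2862 for SNORA65. DUSP6 and SNORA65 were within the range of set 2, IL10 was just above it and CCL5 below it, all outside the range of set 1, and BCL6 was below set 2 and above set 1. Over the 941 genes with the same call in 4 processings it was nearer to set 1 for 29.8%, and over all 5851 called genes for 61.0%, with an interquartile range of 1.86, within the range of set 1 and below that of set 2. In the siRNA arm, whose arrays are separate, JAK3 siRNA differed from its control siRNA (2 arrays each) by -1.17 for DUSP6, -0.86 for IL10, -0.51 for CISH and 0.85 for BCL6 on the log2 scale, each opposite in sign to set 1 minus set 2. Of the 15 genes of the IL-2 and STAT5 list called higher in set 1, 13 were below 0 with JAK3 siRNA, where 54.3% of all genes tested were below 0. The median over the 15 was -0.175, and the 2 above 0 were DUSP4 (0.45) and IL2RA (0.03). Some of the 13 were near 0, such as TNFRSF18 (-0.007) and TNFRSF4 (-0.011). The IL-2 and STAT5 list was chosen with results on these arrays known. Of the 21 genes at least 2-fold higher in set 1, 13 (61.9%) were below 0 and 8 above 0 with JAK3 siRNA. Of the 270 at least 2-fold lower, 166 (61.5%) were above 0 and 104 below 0, where 45.7% of all genes were above 0. Of the 12 cholesterol genes called lower in set 1, 9 were below 0 with JAK3 siRNA as well, so that they did not take the opposite sign. Over the 941 genes the 2 differences had r = -0.314 across genes, and over all 14410 genes r = -0.0715.

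**Figure D5:**
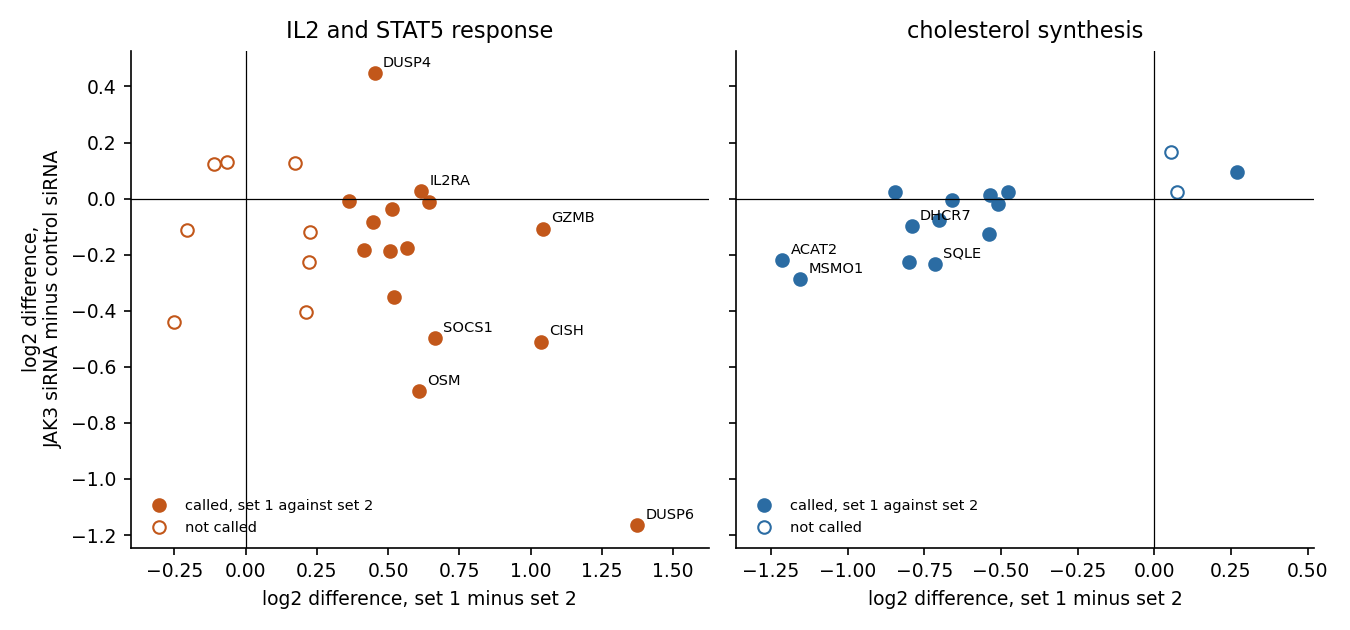
Log2 difference of set 1 minus set 2 (horizontal) beside JAK3 siRNA minus control siRNA (vertical, 2 arrays each) for 23 genes of the IL-2 and STAT5 list (left) and 15 genes of cholesterol synthesis (right). Filled points were called between sets. Of the filled points at the left 13 of 15 lie below 0 on the vertical axis, and of the 12 lower cholesterol genes 9 do.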

How the data were processed

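Transcripts of NKYS cells were measured on Affymetrix arrays, and the authors deposited linear signal intensity for 28869 probe sets; the sources used here do not name their background correction or normalization. Log2 of the deposited intensity was used. The platform annotation gives 1 symbol to 19310 probe sets, several to 1752 and none to 7807; the probe set of highest mean stood for each of 18377 genes, and RefSeq (GRCh38.p14) changed 0 symbols. Genes under the 30th percentile of mean signal were left out, except EZH2 and JAK3.

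Tests used limma (version 3.58.1) in R 4.3.3 (lmFit, eBayes; two-sided; Benjamini-Hochberg; 6 residual degrees of freedom, 4 for the interaction), with the data.table package (version 1.17.8). Promoters and figures used Python 3.11.15, pandas 2.3.3 and matplotlib 3.10.9. Nothing says that arrays came from separate cultures, and p-values then reflect only array-to-array spread, possibly technical; 4 arrays a set limit the precision. No array repeated another. Tested on simulated data (14410 genes), the fit found 39% of 100 genes shifted by 0.5 (log2) and 87% of 100 shifted by 1, and 8 of its 134 calls were false. The simulated noise was drawn independently for each gene and array, and few genes were shifted. These shares therefore cannot be carried over to the comparison of the sets, where 40.6% of genes were called.

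The members and the gene lists were chosen with earlier results of these data known. The naming rule took EZH2, JAK3, BCL6, ARRDC3, SQLE and DHCR7, the 15 called genes of largest rise and of largest fall, and at most 4 called genes from each of 44 lists (the 2 of smallest p where none was called), 184 genes, of which the text names 81; 15 others are named outside it, and these were chosen after their values were seen. Alternatives were quantile normalization, median centring, 2 other filters, the mean of probe sets, trended and robust eBayes, array weights and 2 construct blocks. Others were the interquartile range as a covariate and leaving out each array. A fit on 5 arrays (set 1 Y244A and WT, set 2 vector, Y244D and WT) was chosen after seeing the data. Range still differed between sets among these 5.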

Additional observations from a re-analysis of the deposited data

Results flagged for a closer look

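In groups of 4 arrays, 1 array stood apart from the other 3 by Dixon's criterion at the 95% level for 12 of 196 groups of values tested; chance gives about 1 in 20. The set 2 Y244A array was that array in 7 of them. It read 216 for JAK3, against 258 to 262 on the other set 2 arrays, 575 for BCL6, against 692 to 709, and 314 for CD226, against 416 to 426. It was high for FAM27B at 359, against 180.1 to 191, for SCARNA4 at 716, against 490.3 to 519, and for SNORA3A at 5327, against 4127 to 4186. The median signal of that array was 69.4, against 64.5 to 65.2 on the others. In set 1, the Y244A array was high for CCR7 (2104) and GZMB (2903), the Y244D array was low for DUSP6 (147), the WT array was high for SNORA74A (236), and the vector array was low for MVD (172). None of these arrays crossed into the other set's range for BCL6, DUSP6, CCR7, GZMB, SCARNA4, SNORA3A or SNORA74A.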

How the results depend on the processing

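Calls, genes higher and genes lower in set 1 numbered 5851, 2439 and 3412 as reported. They numbered 4662, 1142 and 3520 with each array centred on its median, 10170, 4794 and 5376 with array weights, 1585, 795 and 790 with the interquartile range as a covariate, and 4885, 1668 and 3217 with a filter at the 50th percentile. With a replicate block by title they were 1759, 227 and 1532, and with a block by another reading of the constructs 6320, 2490 and 3830. Titles did not pair the arrays, since deviations of same-titled arrays from their set means correlated at -0.60, -0.33, -0.80 and 0.30. Those of the set 1 vector and set 2 Y244A arrays, which differ in title, correlated at 0.73. Differences between same-titled arrays are therefore not differences between matched arrays. Without 1 array, calls ranged from 2650 to 8355, genes higher from 675 to 3687 and genes lower from 1968 to 4758. The low counts came without set 1 Y244D or without set 2 vector, Y244D or WT, and the cause was not tested. The other settings kept these 3 counts within 1.5 times, and the interaction, refitted only after quantile normalization, again had 0 calls.

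EZH2 turned to -0.27 without the set 1 Y244D array and to -0.16 without the set 2 vector array, in a range of -0.27 to 0.76 without 1 array. JAK3 turned to 0.16 after quantile normalization, 0.28 with the covariate and 0.0256 on 5 arrays. TM7SF2 turned to -0.0439 with median centring and ranged from -0.00425 (without the set 2 Y244A array) to 0.128, MVD turned to -0.0225 with median centring, and LTA to -0.0318 with the covariate. None of these was called. No gene named as called turned its sign in any setting; with the covariate 21 of them lost their call. Arrays carry no read depth, and genes near the lower quartile of signal, such as IL10 in set 2, can have compressed differences.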
